A study of Mus musculus with 6 samples.

Results

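The histone cluster genes are the replication-dependent histone genes that mouse nomenclature numbers by cluster, and they were taken here as every probe that was not a control and whose gene name on the array began with Hist1h, Hist2h, Hist3h or Hist4h. This gave 55 probes for 49 gene names, of 55681 probes on the array. By histone type there were 6 probes for the linker histone H1, 15 for H2A, 12 for H2B, 8 for H3 and 14 for H4. By cluster there were 40 probes for Hist1, 10 for Hist2, 3 for Hist3 and 2 for Hist4.

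Expression was measured in the cerebellum of C57BL/6J pups at postnatal day 1 (P1) on single-colour Agilent arrays, with each array holding an RNA pool of 3 pups. Dams were fed folic acid (FA) at 2 mg/kg diet, the control, or at 20 mg/kg diet from a week before mating through pregnancy. Each sex had 1 array of the 2 mg group and 2 arrays of the 20 mg group, replicates 1 and 2, each pup of a pool from a different dam. In the 20 mg group 1 of the pools of each sex was extracted in another batch, and the sources used here do not say which replicate it is. All groups received the same amino acid based diet apart from FA, and the labels name no other treatment and no genetic change. The titles name cerebellum although 1 label reads whole brain, and of 12 cerebellum marker genes 10 were well above background on the 5 brighter arrays.

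Histone proteins package DNA: pairs of H2A, H2B, H3 and H4 form the core around which DNA wraps, and H1 binds the linker between cores. Most of the cluster genes are transcribed during S phase, when a cell copies its genome, and their mRNAs end in a conserved stem-loop in place of a poly(A) tail. The stem-loop binding protein Slbp holds this structure through processing, export and translation. In the cerebellum around birth, granule cell precursors divide in the external granule layer, so histone mRNA is a sign of proliferating cells there.

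Because the genes of a type encode nearly the same protein, many of these probes cannot tell neighbours apart. The array design listed 64 RefSeq transcripts for the members, of which 63 were found in the RefSeq table, and it listed 14 of the 55 probes for 2 or more genes. The 5 probes printed here show this for H2A. They end on the letters of a stop codon, and capitals mark the run of 29 bases that all 5 share. Positions are those of the design, in the mm9 build, for Hist1h2af chr13:23626113-23626172, Hist1h2ah chr13:22127035-22127094, Hist1h2ak chr13:21845304-21845363, Hist2h2aa2 chr3:96049837-96049896 and Hist2h2ac chr3:96024378-96024437.
Hist1h2af: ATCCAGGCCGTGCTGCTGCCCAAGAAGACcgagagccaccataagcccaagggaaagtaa
Hist1h2ah: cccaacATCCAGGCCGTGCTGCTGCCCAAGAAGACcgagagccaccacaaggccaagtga
Hist1h2ak: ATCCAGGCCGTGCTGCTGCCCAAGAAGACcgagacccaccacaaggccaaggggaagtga
Hist2h2aa2: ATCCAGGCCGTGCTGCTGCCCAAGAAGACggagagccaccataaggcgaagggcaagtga
Hist2h2ac: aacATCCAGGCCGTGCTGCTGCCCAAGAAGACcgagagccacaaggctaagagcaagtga
For H4, the probes of Hist1h4c (chr13:23790223-23790282) and Hist1h4k (chr13:21842279-21842338) start at the same offset of their transcripts. Capitals mark the 8 bases at which the Hist1h4c probe differs from that of Hist1h4k.
Hist1h4c: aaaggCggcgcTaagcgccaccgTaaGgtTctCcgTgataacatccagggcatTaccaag
Hist1h4k: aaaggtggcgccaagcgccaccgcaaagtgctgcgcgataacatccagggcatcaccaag

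Some probes held the stem-loop itself, which follows the stop codon in these mRNAs. The histone stem-loop, searched on the given strand as a paired stem of 6 bases around a loop of 4 with its variable positions free, was in 6 of the 55681 probes (0.0108%), and all 6 were members, of Hist1h3a, Hist1h3g, Hist1h3i, Hist1h4m, Hist2h2aa1 and Hist2h2bb. For 3 of these genes, 30 bases around it are shown with the stem-loop in capitals. The probe of Hist1h2ab (chr13:23843392-23843451), whose values are given later, stops within the stem-loop.
Hist1h4m: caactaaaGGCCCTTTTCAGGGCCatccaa
Hist2h2bb: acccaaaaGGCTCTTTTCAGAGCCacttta
Hist1h3i: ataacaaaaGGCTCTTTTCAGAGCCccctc
Hist1h2ab: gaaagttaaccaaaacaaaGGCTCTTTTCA

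Most of the cluster genes gave a signal in P1 cerebellum. A probe counts as well above background where the authors' image software had flagged it so. On every one of the 5 brighter arrays, 40 of the 55 histone probes (72.7%) reached this level, compared with 46.2% among all probes. The array of female 20 mg replicate 2 was dim, with 23.3% of probes flagged so against 51.1 to 71.9% on the others, and 17 histone probes were well above background on all 6 arrays. Those 17 were 1 of the 6 H1 probes, 10 of the 15 H2A probes, 3 of the 12 H2B probes, 1 of the 8 H3 probes and 2 of the 14 H4 probes. So values of female 20 mg replicate 2 for H1, H2B, H3 and H4 rest largely on signals not well above background, and counts of female calls are given with replicate 1 alone as well. A further 5 probes were well above background on no array, those of Hist1h1d, Hist1h2ae, Hist1h2bg and Hist1h2bq and 1 of the 2 of Hist4h4. The other 10 were above it on 2 to 4 arrays: Hist1h1t, Hist1h2aa, Hist1h2ac, Hist2h2ab, Hist1h2bb, Hist1h2bp, Hist3h2bb-ps, Hist1h3g, Hist2h3c2-ps and the second probe of Hist2h4.

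Values are log2 processed signals, quantile normalized over the 6 arrays with a floor of 10 on the linear scale, so 3.32 is the lowest value possible. Levels of different probes are not compared, since brightness depends on the probe. The values of all members by array are plotted by histone type.

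**Figure D1:**
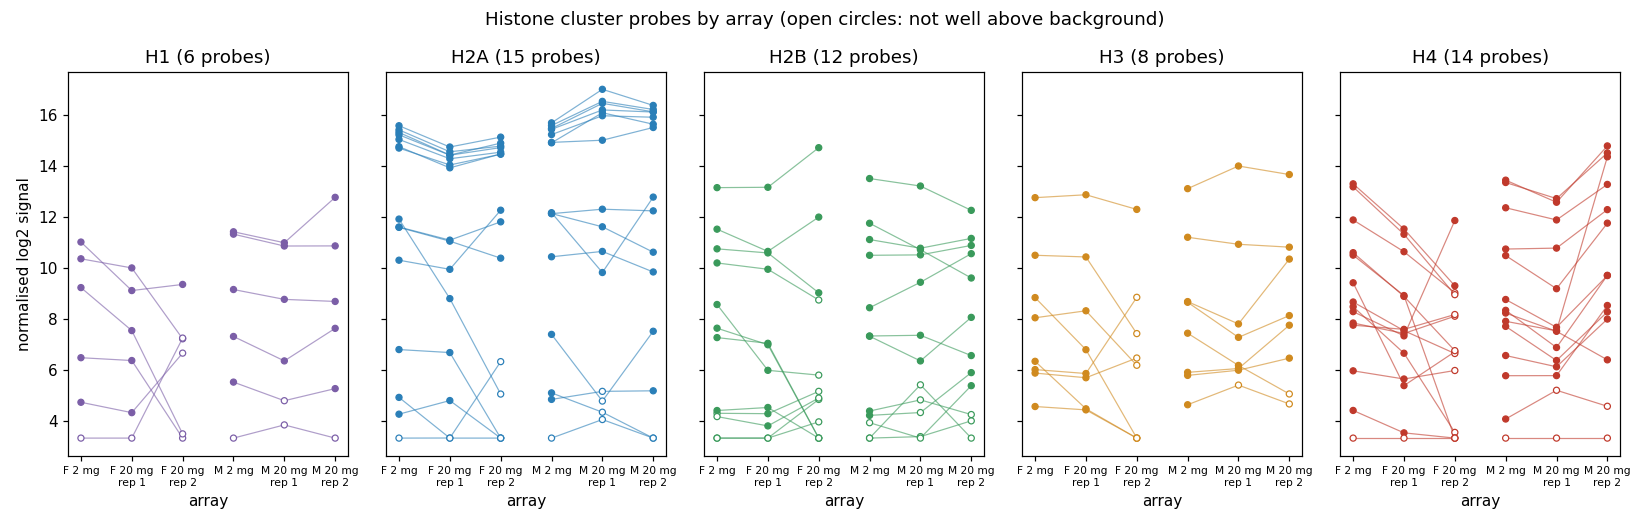
Normalised log2 signal (vertical axis) of the 55 histone cluster probes on the 6 arrays (horizontal axis; F female, M male), in 1 panel per histone type. Each line is a probe, joined within a sex, and open circles were not well above background. On the dim array, female 20 mg replicate 2, most circles are open and several sit at the floor of 3.32, while the bright H2A probes between 13.9 and 17.0 are filled on every array.

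In females, most histone probes were lower on replicate 1 at 20 mg. On this array, which shared a slide with the 2 mg array, 42 of the 47 probes well above background on both arrays were lower, where 49.1% of all probes were. The other 5 were higher, as were 50.9% of all probes. The median difference was -0.66 on the log2 scale, from -4.04 to 0.53, against 0.01 for all probes. Past 2.5-fold, 12 of the 47 were lower and 0 were higher, with 2.80% and 1.59% of all probes. Against the male 2 mg array of the same slide, this array was lower for 46 of 48 histone probes and higher for 2, where 48.5% and 51.5% of all probes were, with a median of -0.96. Past 2.5-fold, 14 were lower and 0 higher in that comparison, with 1.92% and 0.858% of all probes. The 2 mg arrays differed from each other (male minus female) by a median of 0.16 over 48 probes, with 15 lower and 33 higher, where 51.1% and 48.9% of all probes were. Past 2.5-fold, 1 was lower and 1 higher, with 0.538% and 0.34% of all probes. On replicate 2, 12 of the 17 measured probes were lower, with a median of -0.45, where 36.3% of all probes were lower, 63.7% were higher and their median was 0.47. Past 2.5-fold, 3 were lower and 3 higher on replicate 2, with 11.4% and 26.6% of all probes. The direction on replicate 2 turned with the scaling: over all 55 probes, whether above background or not, 37 were lower and 17 higher with quantile normalization (median -1.08), and 22 were lower and 33 higher with a shift to a common 75th percentile (median 0.46).

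By the fold rule of the study, a mean difference of at least 2.5-fold among probes that passed a variation filter, 19 of the 55 histone probes were lower and 3 were higher in females, against 10.3% and 8.65% of all probes. With female 20 mg replicate 2 left out, 12 were lower and 0 higher, where 1216 and 690 of all 55681 probes were. With each array shifted to a common 75th percentile in place of quantile normalization, 1 was lower and 1 higher, where 354 and 1723 of all probes were. Then 2 of the 55 passed the variation filter instead of 23, and 2432 of all probes instead of 15247. Regardless of the filter, 13 were past 2.5-fold lower on both female 20 mg arrays and 0 were higher on both, with 1.28% and 0.476% of all probes, and 11 of the 13 were not well above background on replicate 2. The 19 were 4 H1, 2 H2A, 3 H2B, 3 H3 and 7 H4 probes. Of the 19, 17 were not well above background on the dim array, the exceptions being Hist1h1e and the brightest Hist1h4k probe, and so were all 3 that were higher, of Hist1h1d, Hist1h2ae and Hist2h3c2-ps.

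In males, the 2 arrays at 20 mg went opposite ways. On replicate 1, 24 of 41 measured histone probes were lower, with a median of -0.37 against 0.25 for all probes, where 37.9% of all probes were lower and 62.1% higher. On replicate 2, 33 of 44 were higher, with a median of 0.64 against -0.08 for all probes, where 46.8% of all probes were higher and 53.2% lower. Past 2.5-fold, 4 were lower and 0 higher on replicate 1, with 8.14% and 6.95% of all probes, and 3 were lower and 11 higher on replicate 2, with 5.72% and 11.2% of all probes. The mean of both therefore passed the fold rule for 1 lower probe, of Hist2h3c2-ps, and 2 higher probes, of Hist2h2bb and Hist1h4i, against 2.17% and 1.42% of all probes. With replicate 2 alone the rule gave 1 lower and 10 higher, where 1629 and 2548 of all 55681 probes were. With replicate 1 alone it gave 3 lower and 0 higher, where 2811 and 1519 of all probes were. On both male 20 mg arrays alike, 0 were past 2.5-fold lower and 0 higher, with 1.29% and 0.329% of all probes. These arrays were hybridized on different slides from their 2 mg array and from each other. Male replicate 1 shared its slide and scan day with female replicate 2, and all remaining arrays belonged to the later scan day. So pool, extraction batch, slide and scan day cannot be told apart between the male replicates. The same limit holds for female replicate 2 against its 2 mg array. No histone probe passed the rule the same way in both sexes (0 lower and 0 higher, with 0.991% and 0.855% of all probes).

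**Figure D2:**
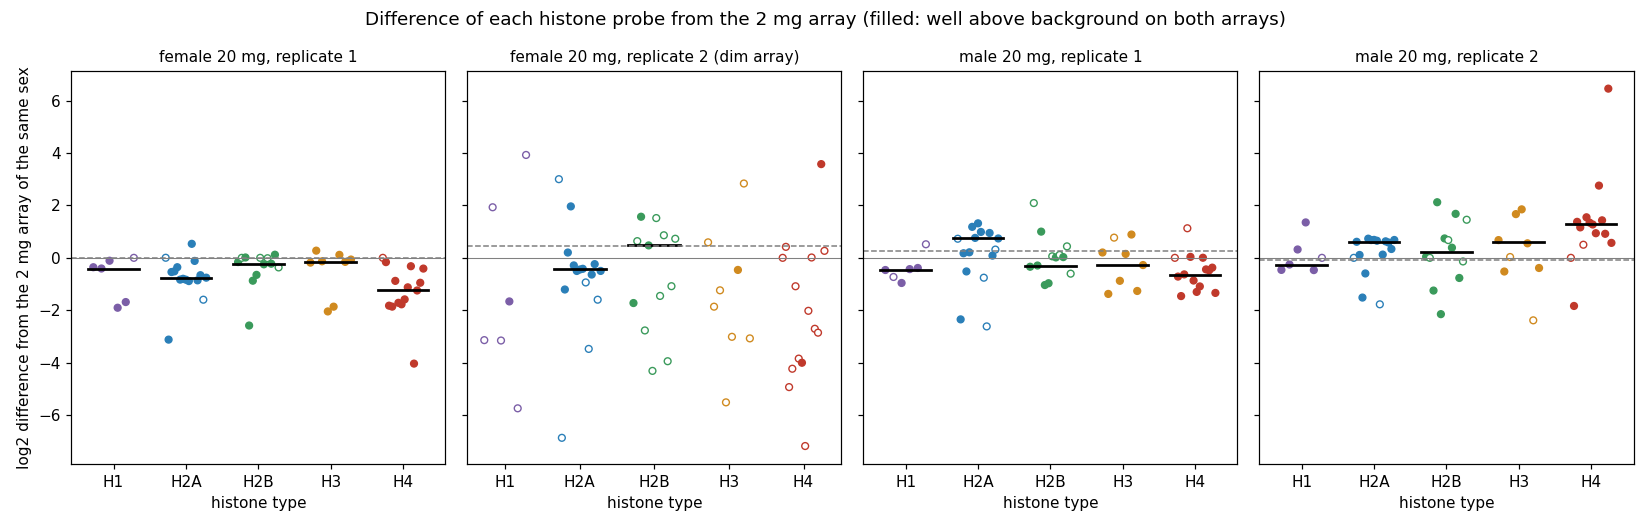
Log2 difference of each of the 55 histone probes from the 2 mg array of its sex (vertical axis), by histone type (horizontal axis), in 1 panel per 20 mg array. Filled circles were well above background on both arrays, black bars are their medians where 3 or more were measured, and the dashed line is the median of all probes measured. H4 lies lowest on female replicate 1 with a median of -1.25 and highest on male replicate 2 with a median of 1.31.

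In the limma fit across 37211 probes, in which 50 histone probes took part, 0 histone probes passed an adjusted p of 0.05, whether for the dose in either sex, for the dose over both, or for the interaction of dose and sex. At an unadjusted p under 0.05 there were 0 in males, 4 in females, 1 over both sexes and 1 for the interaction, against 0.199%, 0.433%, 0.39% and 0.137% of all probes. These calls depended on female replicate 2, on which 3 of the 4 in females were not well above background. Without replicate 2 the median female difference of the 50 histone probes was -0.66, against 0.03 for all probes fitted. Without replicate 1 it was -1.22, against -0.48. Each of these compares 1 array with 1 array, so only the difference is given. The lone 2 mg array of a sex was assumed to vary like the 20 mg arrays. An exact permutation test of 2 arrays against 4 cannot give a two-sided p under 0.0667, and 1 against 2 within a sex cannot go under 0.333. With so few arrays, every value here has limited precision.

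H4 probes had the lowest median of the types on female replicate 1 and the highest on male replicate 2. H4 is the core histone with the most uniform sequence, and several genes encode the same protein. Of the 14 H4 probes, 9 lay within the first 300 bases of the design transcript and were well above background on the 5 brighter arrays, those of Hist1h4c, Hist1h4d, Hist1h4h, Hist1h4i, Hist1h4j, Hist1h4k (2 probes), Hist2h4 and Hist4h4. This group was put together after the values were seen, so it is described without a test. On female replicate 1 all 9 were lower than at 2 mg, by a median of 1.72 on the log2 scale, and 6 were past 2.5-fold. On male replicate 1, 8 of 9 were lower, with a median of -0.87. On male replicate 2 all 9 were higher, with a median of 1.27 and a range of 0.57 to 1.55. On female replicate 2 only 1 of the 9 was well above background, with a difference of -4.003.

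The brightest probe of Hist1h4k (chr13:21842063-21842122), listed for 4 H4 genes, was well above background everywhere. Its log2 level was 13.30 on the female 2 mg array, 11.53 and 9.30 on the female 20 mg arrays, 13.44 on the male 2 mg array, and 12.58 and 14.79 on the male 20 mg arrays. Both female 20 mg values lay under the control, and the male values lay on either side of it. The limma difference was -2.89 (SE 1.13) in females and 0.24 (SE 1.13) in males, with adjusted p = 1 for each.

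Hist2h4 (chr3:96066951-96067010), from the cluster on chromosome 3, was at 13.18 in the female 2 mg pool, 11.32 and 8.95 in the female 20 mg pools, 13.35 in the male 2 mg pool and 12.72 and 14.51 in the male 20 mg pools. It was singled out after its values were seen, as the member with the smallest interaction p, 0.0495 in limma before adjustment and 1.00 after it. Hist4h4 (chr6:136752681-136752740), which stands alone on chromosome 6, was at 10.60 in the female 2 mg pool, then 8.88 and 6.75, and at 10.74 in the male 2 mg pool, then 10.78 and 12.29. In all 3 genes, on 3 chromosomes, female 20 mg values lay below the control on both arrays and male replicate 2 was the highest of the 6. The values 8.95 and 6.75 were not well above background.

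Hist1h4c, whose probe is printed with that of Hist1h4k, was at 8.48 on the female 2 mg array, 6.65 and 3.55 on the female 20 mg arrays, 8.34 on the male 2 mg array, and 6.88 and 9.71 on the male 20 mg arrays. Its limma difference was -3.38 (SE 2.21, adjusted p = 1) in females and -0.04 (SE 2.21, adjusted p = 1) in males. The second Hist1h4k probe, at the same offset, was at 10.50, 8.92 and 3.32 on the female arrays and at 10.48, 9.19 and 11.76 on the male arrays in the same order. Despite 8 differing bases, both probes had the same order of the 3 brighter 20 mg arrays against their controls.

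The H4 medians kept their signs on these arrays under other scalings. Under the 5 other ways of background correction and normalization, the median of the 9 probes was between -1.75 and -1.33 on female replicate 1, between -1.01 and -0.79 on male replicate 1 and between 0.97 and 1.27 on male replicate 2. Of the 40 histone probes well above background on the 5 brighter arrays, 15 were lower on female replicate 1 and male replicate 1 and higher on male replicate 2, which 13.1% of all such probes were. These were 9 of 12 H4 probes, 2 of 4 H1, 1 of 11 H2A, 2 of 7 H2B and 1 of 6 H3. The pattern was taken from the H4 values after they were seen and counts the same probes, so the H4 count is a description and no test.

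Hist1h4i showed how far probes of 1 gene can part. Its probe near the start of the transcript (chr13:22133139-22133198) was at 9.42 on the female 2 mg array and at 5.38 to 7.99 on the others, so it was high in that 1 control pool. The probe furthest along (chr13:22132591-22132650) was at 8.23 in the male 2 mg pool and 6.39 on male replicate 2, the lowest of its 6 values. The brightest (chr13:22132679-22132738) was at 8.28, 7.33 and 11.86 on the female arrays and 7.91, 7.53 and 14.36 on the male arrays, so it carried the higher call in males alone and, without male replicate 2, the difference was -0.37. That probe holds a run that resembles the B1 repeat of rodent genomes, shown in capitals.
Hist1h4i: cgagtgttGGGATTAAAGGCGTGcgccaca
The run of 15 bases was in 2 probes of the array on this strand and in 1 on the other. The second probe on this strand, of Galns, was at 9.68 on the male 2 mg array and 14.40 on male replicate 2, and at 10.04 on the female 2 mg array and 13.56 on female replicate 2. Both were thus high on the same 2 arrays, and whether the repeat accounts for this was not tested.

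H2A probes at offsets of 300 to 400 bases formed a second block, which parted by sex. H2A pairs with H2B in the core, and its cluster genes differ by a few residues at the end. The 7 at these offsets that were well above background on all 6 arrays were those of Hist1h2af, Hist1h2ag, Hist1h2ah, Hist1h2ak, Hist1h2an, Hist2h2aa2 and Hist2h2ac, also grouped after the values were seen. All 7 were lower on female replicate 1 (median -0.83) and on female replicate 2 (median -0.45), and all 7 were higher on male replicate 1 (median 0.95) and on male replicate 2 (median 0.68). With arrays shifted to a common 75th percentile, the median on female replicate 2 turned to 0.64, where that of all probes was 1.00, and on male replicate 1 it was 0.17, where all probes were at -0.16. None of the 7 passed 2.5-fold on any array. Of the 17 histone probes well above background on all 6 arrays, 8 were lower on both female and higher on both male 20 mg arrays, all of them H2A, where 3.89% of all such probes were. This pattern too was chosen after the values were seen, so the count is a description and no test.

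Hist1h2ah, whose probe is listed for 4 genes, was at 15.58 in the female 2 mg pool, 14.75 and 15.13 in the female 20 mg pools, 15.69 in the male 2 mg pool, and 17.01 and 16.38 in the male 20 mg pools. The limma difference was -0.64 in females and 1.00 in males (SE 0.89 each, adjusted p = 1). Before scaling, its processed signal was 106027 on the female 2 mg array and 106890 on female replicate 1, so its lower normalised value there stands on an array whose median processed signal over all probes was 162 against 93.2. Hist1h2ag was at 15.42, 14.56 and 14.78 on the female arrays and 15.59, 16.54 and 16.22 on the male arrays, in the same order. Hist1h2af was at 15.32, 14.43 and 14.90 in females and 15.47, 16.46 and 16.13 in males. Hist1h2ak was at 15.22, 14.42 and 14.72 in females and 15.44, 16.20 and 16.12 in males. These probes share most of their bases (31 to 55 of 60 between pairs after the best shift), so they cannot be read as separate genes.

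**Figure D3:**
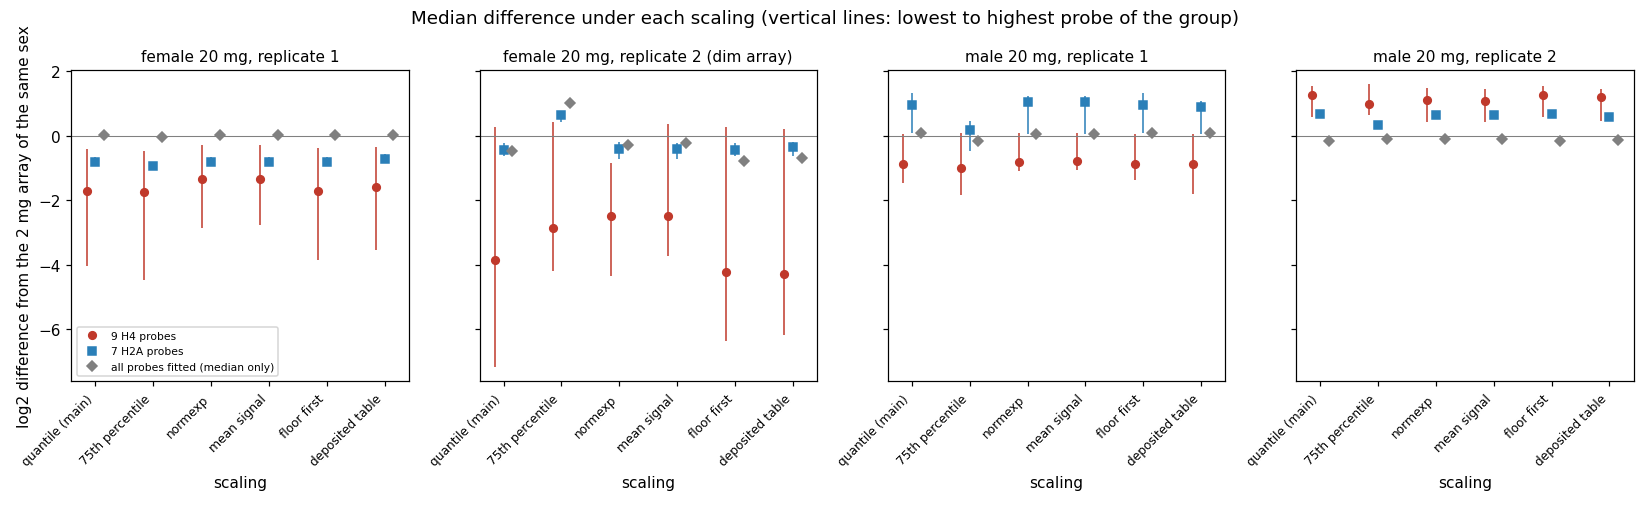
Median log2 difference from the 2 mg array of the same sex (vertical axis) of the 9 H4 probes (circles), the 7 H2A probes (squares) and all probes fitted (diamonds) under 6 scalings (horizontal axis), in 1 panel per 20 mg array. Vertical lines run from the lowest to the highest probe of a group. The H4 median keeps its sign on each array, and the H2A median turns to 0.64 on the dim female array under the 75th percentile shift.

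Hist1h2ab, an H2A gene of the Hist1 cluster read at its stem-loop, had the largest female difference of the genes past 2.5-fold on both arrays. It was at 11.92 on the female 2 mg array, 8.80 and 5.05 on the female 20 mg arrays, 12.17 on the male 2 mg array, and 9.82 and 12.78 on the male 20 mg arrays. The difference was -3.12 on female replicate 1 and -2.35 on male replicate 1, both past 2.5-fold, and it was not well above background on female replicate 2. On male replicate 2 it was higher, by 0.61. The limma difference was -4.99 (SE 1.54) in females and -2.93 (SE 1.09) over both sexes, with adjusted p of 1 and 1.00, and the smallest unadjusted p of the members in both, 0.00383 and 0.0135. Among the remaining H2A probes, 2 had the signs of the block. The second Hist1h2ak probe, at offset 0, differed by -0.54 and -1.21 on the female and by 0.17 and 0.11 on the male 20 mg arrays. Hist2h2ab differed by -1.60 on both female and by 0.32 and 0.34 on the male 20 mg arrays, but was well above background on only 3 arrays. Others, such as Hist3h2a and Hist1h2aa, stood apart from the block. Hist3h2a, read 767 bases along its transcript, was at 11.61, 11.09 and 11.81 in females and 12.13, 11.61 and 10.62 in males. Hist1h2aa, expressed mainly in testis, was at 6.80 and 6.68 on the female 2 mg array and replicate 1, and at 7.39 on the male 2 mg array, and it was not well above background on female replicate 2 or male replicate 1.

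H2B members went in different directions across arrays. Over the 6 arrays the mean pairwise correlation of the 10 H2B probes fitted was 0.05. Hist2h2bb, read at its stem-loop (chr3:96074056-96074115), was lower in females and higher in males by the fold rule, and Hist2h3c2-ps, not well above background on 2 arrays, was the other member called in opposite directions. It was at 8.56 on the female 2 mg array, 5.98 and 5.79 on the female 20 mg arrays, 8.44 on the male 2 mg array, and 9.44 and 10.56 on the male 20 mg arrays, and it was singled out after its values were seen. The female 20 mg values lay below every other and the male 20 mg values above, but the value of 5.79 was not well above background. The limma difference was -2.68 (SE 1.81, adjusted p = 1) in females and 1.56 (SE 1.81, adjusted p = 1) in males. Hist1h2ba, a testis H2B, was at 10.75, 10.59 and 9.02 in females and 11.11, 10.77 and 11.16 in males, well above background on every array.

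Probes far along the transcript included some of the brighter H2B probes. Hist1h2bc, read 632 bases along, was at 11.52, 10.65 and 11.995 on the female arrays and 11.75, 10.72 and 9.605 on the male arrays. Hist3h2ba, read 551 bases along, was at 13.15, 13.16 and 14.72 on the female arrays and 13.51, 13.21 and 12.26 on the male arrays. Both were lowest on male replicate 2, the array on which the H4 probes were highest. Of the 6 core histone probes at offsets of 500 bases or more that were well above background on the 5 brighter arrays, 5 were lower on male replicate 2, 3 of them past 2.5-fold, with a median of -1.38, against 5.72% of all probes past 2.5-fold lower. The exception there was Hist1h2be, which was higher by 0.74. On female replicate 1 and on male replicate 1, 5 of the 6 were lower as well, with medians of -0.37 and -0.62, and the 3 measured on female replicate 2 were higher, with a median of 0.47. Whether these probes differ from the others was not tested.

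H1 probes were lower on female replicate 1, and 0 of them passed limma. Hist1h1e, a main linker histone of dividing cells, was at 11.02 on the female 2 mg array, 9.11 and 9.35 on the female 20 mg arrays, 11.42 on the male 2 mg array, and 10.99 and 12.77 on the male 20 mg arrays. Both female 20 mg values lay below all others and the limma difference was -1.78 (SE 1.18, adjusted p = 1). Hist1h1c was at 9.23, 7.54 and 3.49 in females, the last not well above background, and 9.15, 8.77 and 8.69 in males, with a limma difference of -3.71 (SE 2.06, adjusted p = 1) in females. All 5 H1 probes measured on female replicate 1 and its control were lower, 2 past 2.5-fold, against 49.1% and 2.80% of all probes. All 4 measured on male replicate 1 were lower, 0 past 2.5-fold, against 37.9% and 8.14% of all probes. On female replicate 2, 1 of the 6 H1 probes was well above background. Hist1h1t, the testis linker histone, was well above background on 4 arrays, with values between 4.32 and 6.66 over all 6.

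For H3 the results were mixed. Hist2h3b, of the cluster on chromosome 3, was at 8.84, 6.79 and 3.32 in females and 8.68, 7.80 and 10.35 in males, the order of the H4 probes. Its limma difference in females was -3.78 (SE 2.13, adjusted p = 1), and its value on female replicate 2 was at the floor. Hist1h3d, listed for 4 genes, was at 12.76, 12.87 and 12.30 in females and 13.11, 14.00 and 13.67 in males, closer to the H2A block. Of 8 H3 probes measured on female replicate 1 and its control, 6 were lower, 2 past 2.5-fold, with a median of -0.14.

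Across arrays, the mean correlation among histone probes was above that of all probes. The mean pairwise correlation of the 50 probes fitted was 0.28 over the 6 arrays and 0.30 over 5 without the dim array, against 0.02 and 0.01 for all 37211 probes. With the 75th percentile shift it was 0.19, against 0.11 for all probes. This is a description over 6 arrays, which share slides and depth, and it carries no test. Some of the probes, such as the 7 H2A probes, share most of their bases and cannot be read as separate genes. Over the 6 arrays the mean was 0.28 within H1, 0.38 within H2A, 0.05 within H2B and 0.18 within H3. Within H4 it was 0.37, and 0.51 without the dim array. Within the 9 H4 probes it was 0.67, and 0.81 without the dim array. Within the 7 H2A probes it was 0.96 both ways, and between these H4 and H2A probes it was 0.47. Between the 9 H4 probes and the 6 probes at offsets of 500 bases or more it was -0.12, and -0.21 without the dim array.

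**Figure D4:**
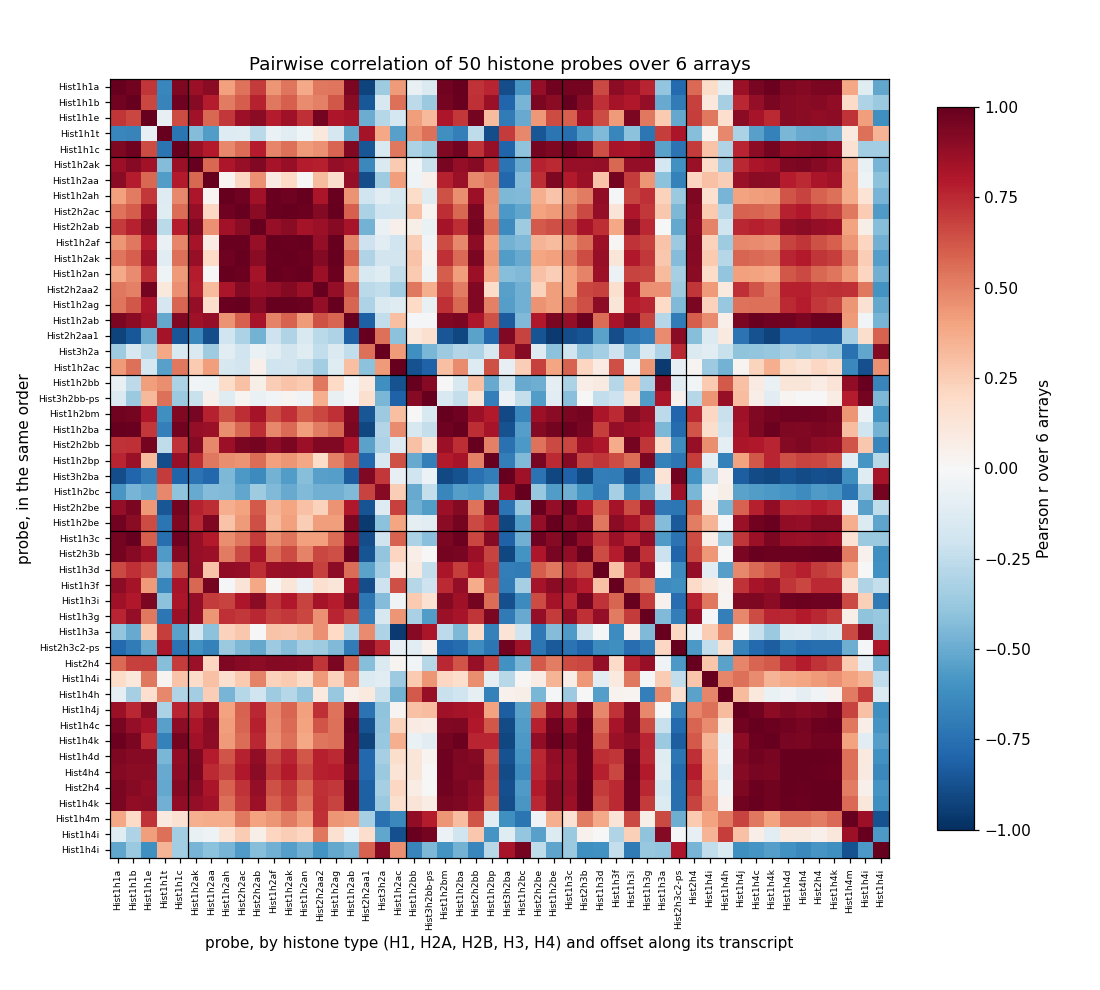
Pearson correlation over the 6 arrays (colour, from -1 to 1) for each pair of the 50 histone probes fitted, ordered by histone type and then by offset along the transcript, with black lines between types. The H2A probes at offsets of 300 to 400 bases form a red block (mean 0.96), several H4 probes form another, and Hist3h2ba, Hist1h2bc, Hist2h2aa1 and Hist2h3c2-ps run blue against them.

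The promoters of the members share sequence that the probes do not cover. RefSeq windows of 250 bases before to 50 after the start (GRCm38.p6) were found for 42 member genes, 43 windows in all. On either strand, the octamer ATTTGCAT, a site known from H2B promoters, was in 13 of the 43, against 1.74% of all 32851 promoters. It was in 7 of 14 windows of H2A genes and 6 of 10 of H2B genes, which often share a promoter between divergent genes, and in 0 of 6 of H1, 0 of 5 of H3 and 0 of 8 of H4. TATAAA was in 26 of 43 (13.6% of all promoters) and CCAAT in 37 of 43 (37.4% of all promoters). CCAAT was in 2 of the 8 windows of H4 genes and in all 35 others. The bases just before the start are shown for the H4 genes Hist1h4k (chr13:21750554-21750653, minus strand) and Hist1h4d (chr13:23581468-23581567, plus strand) with TATAAA in capitals, and for the H2B gene Hist1h2bb (chr13:23746634-23746733, plus strand) with ATTTGCAT and TATAAA in capitals.
Hist1h4k: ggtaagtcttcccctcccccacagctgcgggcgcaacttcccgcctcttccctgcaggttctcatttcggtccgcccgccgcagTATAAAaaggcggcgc
Hist1h4d: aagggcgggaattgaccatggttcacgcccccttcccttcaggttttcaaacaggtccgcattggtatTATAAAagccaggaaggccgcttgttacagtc
Hist1h2bb: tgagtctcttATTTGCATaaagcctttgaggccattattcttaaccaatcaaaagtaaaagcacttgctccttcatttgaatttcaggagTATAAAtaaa

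Genes that make or handle histone mRNA gave calls in females that rested on the dim array. Of 13 genes for transcription and 3′ end processing of histone mRNA, 3 were lower and 1 higher by the fold rule in females and 0 in males, and 0 passed limma. By the same rule 10.3% of all probes were lower and 8.65% higher in females. None of the 4 was past 2.5-fold on female replicate 1 (0 lower, 0 higher), and the higher one was Npat, which switches on the histone clusters in S phase and was well above background on no array. Slbp was at 7.68 on the female 2 mg array, 9.90 on female replicate 1, 8.24 on the male 2 mg array, and 10.61 and 7.87 on male replicates 1 and 2, and it was at the floor on the dim array. It was thus higher, by 2.22 and 2.36, on female replicate 1 and male replicate 1, where the H4 probes were lower. It was lower, at -4.35, on the dim array, where 8 of the 9 H4 probes were lower as well, with a median of -3.84, and it had a difference of -0.38 on the array where they were higher. Lsm11, a part of the U7 particle that cuts histone mRNA, was at 6.75, 6.79 and 8.25 on the female arrays and at 6.57, 6.96 and 7.66 on the male arrays.

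Histone variants outside the clusters had few calls. Of 11, 1 was lower in females (Cenpa, the centromere H3) and 0 in males by the fold rule, against 10.3% and 2.17% of all probes. Cenpa was at the floor on the dim array (-4.41), and on female replicate 1 it was higher, by 1.12. H2afz was at 15.05, 15.18 and 14.26 in females and 15.14, 15.37 and 15.01 in males. H2afx was at 11.94, 12.30 and 10.61 in females and 12.25, 12.36 and 10.82 in males. H3f3b was between 13.92 and 14.60 on all 6 arrays. H3f3a was at 15.16, 14.71 and 13.55 in females and 15.31, 14.12 and 14.61 in males, below the control on all 4 arrays at 20 mg. H1f0, the linker histone of cells at rest, was well above background on 4 arrays, between 4.45 and 5.88 apart from the floor on the dim array.

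S-phase genes were measured for comparison. Of 20 genes such as Pcna, Mcm2 and Rrm2, 5 were lower in females and 0 in males by the fold rule, against 10.3% and 2.17% of all probes. Of the 5 (Mcm2, Mcm5, Tyms, Ccna2 and Pola1), 0 were past 2.5-fold on female replicate 1, where their differences ran from -0.92 for Mcm2 to -0.25 for Mcm5. The list's median difference was -0.23 on female replicate 1, -0.28 on female replicate 2, 0.21 on male replicate 1 and -0.55 on male replicate 2. All probes fitted had medians of 0.03, -0.48, 0.09 and -0.16 in the same order. On the male arrays the signs of the list were thus those of all probes and the reverse of those of the H4 probes. On female replicate 1 the list's median was negative like that of the H4 probes, where all probes were at 0.03. On female replicate 2 the medians of the list, of the H4 probes and of all probes were negative. Ccne2, a cyclin of S-phase entry, was well above background on 3 arrays. It was at 4.998 on the male 2 mg array and at the floor on both male 20 mg arrays, so the size of that difference is set by the floor. Of 19 histone chaperones, which hand histones to DNA, 5 were lower in females and 0 in males, with medians of 0.21, -1.15, 0.43 and -0.37 on the arrays in the same order. The 5 (Asf1a, Asf1b, Atrx, Hat1 and Nap1l4) were called through the dim array: on female replicate 1, 4 of them were higher, 1 was lower and 0 were past 2.5-fold.

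Tissue makeup also differed between the pools. The choroid plexus markers, 6 genes, had a log2 summed level of 12.52 on the female 2 mg array and 16.31 and 14.89 on the female 20 mg arrays, and of 14.73, 15.54 and 15.47 on the male arrays. The 8 forebrain markers had summed levels of 12.40, 13.76 and 11.15 on the female arrays and 10.14, 12.19 and 10.40 on the male arrays. Of these 8, 3 were well above background on all 5 brighter arrays. Their median differences were 0.98 and -1.16 on female replicates 1 and 2, and 1.83 and -0.06 on male replicates 1 and 2. The cerebellum markers had summed levels of 15.75, 15.38 and 14.86 on the female arrays and 15.54, 15.73 and 14.97 on the male arrays. The summed choroid plexus level was higher on both female 20 mg arrays than at 2 mg, with median differences of its genes of 2.51 and 2.30. The summed cerebellum level was lower on both, but a sum follows its brightest gene, here Zic1 (15.47, 15.08 and 14.04 in females). The median difference of the 12 cerebellum markers was -0.38 on female replicate 1 and 0.12 on female replicate 2. The part of these markers in the histone results was not tested. In such pools, a different share of dividing cells, a different tissue content and a different level of histone mRNA per cell cannot be told apart.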

How the data were processed

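Cerebellum RNA of P1 pups was hybridized to 6 arrays, 1 per pool, and samples were grouped by the sex and FA dose in their labels. For the scanner intensities, the authors ran Agilent Feature Extraction 10.7.3.1 (per the submitters' processing notes), and its processed signals already had the background subtracted. The deposited log2 table was quantile normalized over the arrays with a floor, by the authors, and served as an alternative. Whether the labelling started from poly(A) tails is not given in the sources used here, and histone mRNAs mostly lack them.

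Here, spots flagged as outliers were left out, signals were averaged per probe, put on the log2 scale and quantile normalized, with a linear floor of 10. The variation filter kept probes whose variance gave a chi-square p at or under 0.05, and the fold rule took in each sex the 20 mg mean over the 2 mg value at 2.5-fold. The limma fit (version 3.58.1, R 4.3.3) had 4 groups of sex and dose, a trend, 2 residual degrees of freedom and probes well above background on at least 2 arrays, with Benjamini-Hochberg adjustment over all of them. Differences of 1 array from its control used probes well above background on both.

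Named genes were, per type, up to 4 of the highest signal well above background on all 6 arrays, per sex and direction up to 4 with the largest difference among those past 2.5-fold on both 20 mg arrays, those called alike in both sexes, 3 testis members, and 8 related genes with any other list member past 2.5-fold on both 20 mg arrays of a sex, each by its brightest probe. Other genes were chosen after their values were seen. The members and lists were chosen with earlier results of these data known. Sequences came from the scanner files and from RefSeq promoters (GRCm38.p6), and the design gives probe positions in mm9.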

Additional observations from a re-analysis of the deposited data

Results flagged for a closer look

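Among the genes described by name, 6 had differences between 2 and 20 mg of opposite sign in females and males, both arrays of a sex alike. Other members, such as Hist1h2an, Hist2h2aa2 and Hist2h2ac, had the same pattern. For Hist3h2ba the difference on female replicate 1 was 0.01. The signs depended on the scaling. With the 75th percentile shift, all 7 H2A probes of the block were higher on female replicate 2. All 6 core histone probes at offsets of 500 bases or more, Hist3h2ba among them, were then lower on female replicate 1. The difference of the dose effects, female minus male on the log2 scale, was -1.47 for Hist1h2af, -1.54 for Hist1h2ag, -1.64 for Hist1h2ah and -1.37 for Hist1h2ak, which are largely the same sequence. It was -4.24 for Hist2h2bb, whose probe was not well above background on female replicate 2, and 1.56 for Hist3h2ba. The interaction of dose and sex in limma gave unadjusted p of 0.254, 0.233, 0.208, 0.285, 0.113 and 0.273 in this order, and adjusted p of 1.00 for each, so none passed.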

How the results depend on the processing

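Limma called 0 histone probes under each alternative that gave a fit. The smallest adjusted p of a member was 0.0611, over both sexes on the 4 arrays of the later scan day. Slide as a random block was not fitted, since no probe gave an estimate of the correlation. No paired analysis was possible because each 2 mg group has 1 array with no replicate number, so the groups compared share fewer than 2 numbers.

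In females the 22 probes past 2.5-fold became 2 with the 75th percentile shift, 14 with normexp and 13 with the mean signal. They became 12 with the 5 other arrays normalized alone and 13 on the 4 arrays of the later scan day. Leaving out a 20 mg array gave 12 to 23. Over all 55681 probes the lower and higher calls were 5737 and 4815 in the main run. In the order of these settings they were 354 and 1723, 2211 and 1349, 1970 and 1134, 1435 and 985, and 1699 and 1198. With an array left out, lower calls ran from 1216 to 7530 and higher calls from 690 to 5848. In males the 3 became 1 with the 75th percentile shift, 5 with the deposited table and 5 without the variation filter. They became 8 with the 5 arrays normalized alone, 16 on the later scan day and 3 to 11 with an array left out. Over all probes the lower and higher male calls were 1208 and 790 in the main run. In the order of these settings they were 275 and 426, 1340 and 747, 1795 and 1029, 2210 and 1424, and 4208 and 5097. With an array left out, lower calls ran from 1076 to 2811 and higher calls from 752 to 2548. In both sexes alike the 0 became 1 with the 75th percentile shift, the floor before normalization and the deposited table. It became 2 at a threshold of 2-fold and 0 to 3 with an array left out. Over all probes the lower and higher calls shared by both sexes were 552 and 476 in the main run. In the order of these settings they were 155 and 389, 590 and 343, 519 and 296, and 1097 and 946. With an array left out they ran from 88 to 1523 and from 70 to 752. The female median of -0.82 became -0.20 with the 75th percentile shift, where the median of all probes moved from -0.21 to 0.45, and -1.22 to -0.66 with an array left out, and the male median of 0.21 was -0.36 to 0.60, with the lowest value, of the opposite sign, without male replicate 2. Probes well above background on every array rose from 17 to as many as 40 with an array left out (17 to 40). The mean correlation of 0.28 was 0.19 with the 75th percentile shift, where that of all probes rose from 0.02 to 0.11, 0.34 with the floor before normalization, 0.33 with the deposited table and 0.24 to 0.34 with an array left out.

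Among called values and group medians, changes of sign were found for Hist1h4i in males, -0.37 to 6.46 with an array left out (-0.37 without male replicate 2), for Hist2h3c2-ps in females, -0.15 to 2.84 with an array left out (-0.15 without female replicate 2), and for the 7 H2A probes on female replicate 2, 0.64 with the 75th percentile shift. Without male replicate 2, uncalled male differences also changed sign, among them Hist1h4k from 0.24 to -0.87, Hist2h4 from 0.26 to -0.63 and Hist1h1e from 0.46 to -0.43. The group medians were added after seeing the data. The signal over background limits H1, H3 and H4 on the dim array.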
